A study of Mus musculus with 4 samples.

Results

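The genes examined here encode 9 inhibitors of signalling by bone morphogenetic proteins (BMPs): Nog, Bambi, Smad6, Smad7, Smurf1, Smurf2, Pmepa1, Ski and Skil. They were taken by name, and every open-chromatin peak with its midpoint in the gene body or within 50 kb of it was assigned to them. This gave 64 of the 41343 peaks in the library of organoids exposed to BMP2 for 72 h and 56 of the 35857 peaks in the library of organoids with 0 h of BMP2. All 9 symbols were found in the gene table, among 18256 protein-coding genes with at least 1 peak in reach.

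The assay was ATAC-seq, in which the Tn5 transposase cuts and tags accessible DNA, applied to epithelial organoids that had been started from jejunal crypts (C57BL/6J mice; how many animals is not given in the sources used here), with 30000 cells taken per condition. The 72 h organoids had been without CHIR99021 (which turns on Wnt signalling by blocking GSK3), without valproic acid (which blocks histone deacetylases) and without Noggin for 72 h, kept epidermal growth factor and R-spondin, and received 100 ng/mL recombinant BMP2. The 0 h organoids stayed in the medium with all 5 of these factors and no added BMP2. The design asks how accessibility changes with the length of BMP exposure, and each time point is 1 library. The libraries of 24 h and 48 h were not used here. The effects of adding BMP2 and of withdrawing CHIR99021, valproic acid and Noggin cannot be told apart, and Noggin itself, a product of a gene examined here, was among the factors withdrawn.

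BMPs bind paired receptors at the cell surface, which phosphorylate SMAD1, SMAD5 and SMAD9; these enter the nucleus with SMAD4 and control genes. The pathway induces several of its own inhibitors, a classic negative feedback. In the small intestine BMP activity is low around the crypt base, where antagonists are secreted by the surrounding tissue, and higher toward the villus, where it limits proliferation and shapes enterocyte maturation. Nog encodes noggin, a secreted protein that traps BMP ligands. Bambi encodes a membrane pseudoreceptor without a kinase domain. Smad6 and Smad7 encode the inhibitory SMADs, which block receptor-activated SMADs. Smurf1 and Smurf2 encode ubiquitin ligases that mark SMADs and receptors for degradation. Pmepa1 encodes a membrane protein that binds receptor-activated SMADs of the TGF-beta branch. Ski and Skil encode nuclear corepressors that bind SMAD complexes.

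The start regions of 4 of the 9 genes (Smad6, Ski, Smurf1 and Smurf2) are in the RefSeq promoter table (build GRCm38.p6, which is mm10) as 250 bases before to 50 bases after the annotated start. Those of Smad6, Smurf1 and Smurf2 are shown because a peak of the 72 h library and a peak of the 0 h library each covered all 300 bases. They run 5′ to 3′ on the minus strand, at chr9:64022010-64022309 for Smad6, chr5:144965781-144966080 for Smurf1 and chr11:106920666-106920965 for Smurf2. Capitals mark the motifs searched on both strands: GGCGCC, a GC-rich element bound by SMAD1 and SMAD5, and GTCTAGAC, the palindromic SMAD binding element. These motifs do not overlap each other here, and the joined BMP response element (GGCGCC, then any 5 bases, then GTCT), which contains the first of them, was found in none of the 4 windows.
Smad6: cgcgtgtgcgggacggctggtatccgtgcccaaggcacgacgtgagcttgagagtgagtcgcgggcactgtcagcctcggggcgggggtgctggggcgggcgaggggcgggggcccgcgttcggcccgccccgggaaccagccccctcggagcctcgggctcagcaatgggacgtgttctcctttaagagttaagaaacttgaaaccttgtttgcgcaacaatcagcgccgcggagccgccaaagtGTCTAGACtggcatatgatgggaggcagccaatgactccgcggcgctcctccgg
Smurf1: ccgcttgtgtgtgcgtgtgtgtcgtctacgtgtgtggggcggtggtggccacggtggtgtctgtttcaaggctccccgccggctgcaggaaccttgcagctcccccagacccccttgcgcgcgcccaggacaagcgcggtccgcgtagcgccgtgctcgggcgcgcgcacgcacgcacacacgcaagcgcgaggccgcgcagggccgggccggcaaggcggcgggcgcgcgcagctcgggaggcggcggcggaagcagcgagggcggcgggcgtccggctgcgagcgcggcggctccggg
Smurf2: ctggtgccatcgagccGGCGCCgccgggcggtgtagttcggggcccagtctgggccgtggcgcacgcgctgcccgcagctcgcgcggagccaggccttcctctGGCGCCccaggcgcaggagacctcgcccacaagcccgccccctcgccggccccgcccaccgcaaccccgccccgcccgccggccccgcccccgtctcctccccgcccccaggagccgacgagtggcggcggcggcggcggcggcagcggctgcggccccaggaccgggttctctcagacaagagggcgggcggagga

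Smad6 held 1 GTCTAGAC across its annotated start, an element present in 0.213% of the 32851 windows of the table. Smurf2 held GGCGCC at 2 places, and 11.9% of all windows held it at least once. The joined element was in 0.0731% of all windows. Smurf1 held none of the 3 motifs in these 300 bases. GC content was 66.3% in the Smad6 window, 76.3% in Smurf1 and 80.3% in Smurf2, against a median of 52.7% over the table. The Ski window, at chr4:155222486-155222785 with a GC content of 85.3%, also held 1 GGCGCC, but no peak of either library reached it. The nearest peak of each library there was centred 0.781 kb before the start at 72 h and 0.795 kb before it at 0 h. A match is a string of letters and does not show that a SMAD binds there.

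The deposited peak lists carry positions and names but no height, read count or score. A peak is called strict here when it is in the list made at a MACS2 threshold of 1e-10, and lenient when it is only in the list made at 1e-05. A peak is shared when a 1e-05 peak of the other library overlaps it by at least 1 bp, and otherwise belongs to 72 h only or 0 h only. Overlapping peaks of either library were joined into sites. With 1 library per time point no difference has a replicate check and none was tested. Intervals are exact Clopper-Pearson 95% intervals, which cover counting error only and treat peaks or sites as independent. Read depth is unknown, and a missing peak can mean fewer cells with open chromatin or less opening per cell, which cannot be told apart.

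As a check of the tissue, all 8 epithelial marker genes (Epcam, Cdh1, Vil1, Krt8, Krt18, Cdx1, Cdx2 and Hnf4a) had a peak within 1 kb of a gene end at 72 h and at 0 h. Of the markers of the proximal small intestine, Gata4 had one in both libraries and Lct (lactase) in neither. Among markers of other cells, fibroblast and smooth muscle genes had such a peak at 1 of 5 in each library (Col1a1), endothelial genes at 0 of 3 at 72 h and 1 of 3 at 0 h (Kdr), and blood cell genes at 0 of 3 in each. The part of other cells in the results was not tested.

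**Figure D1:**
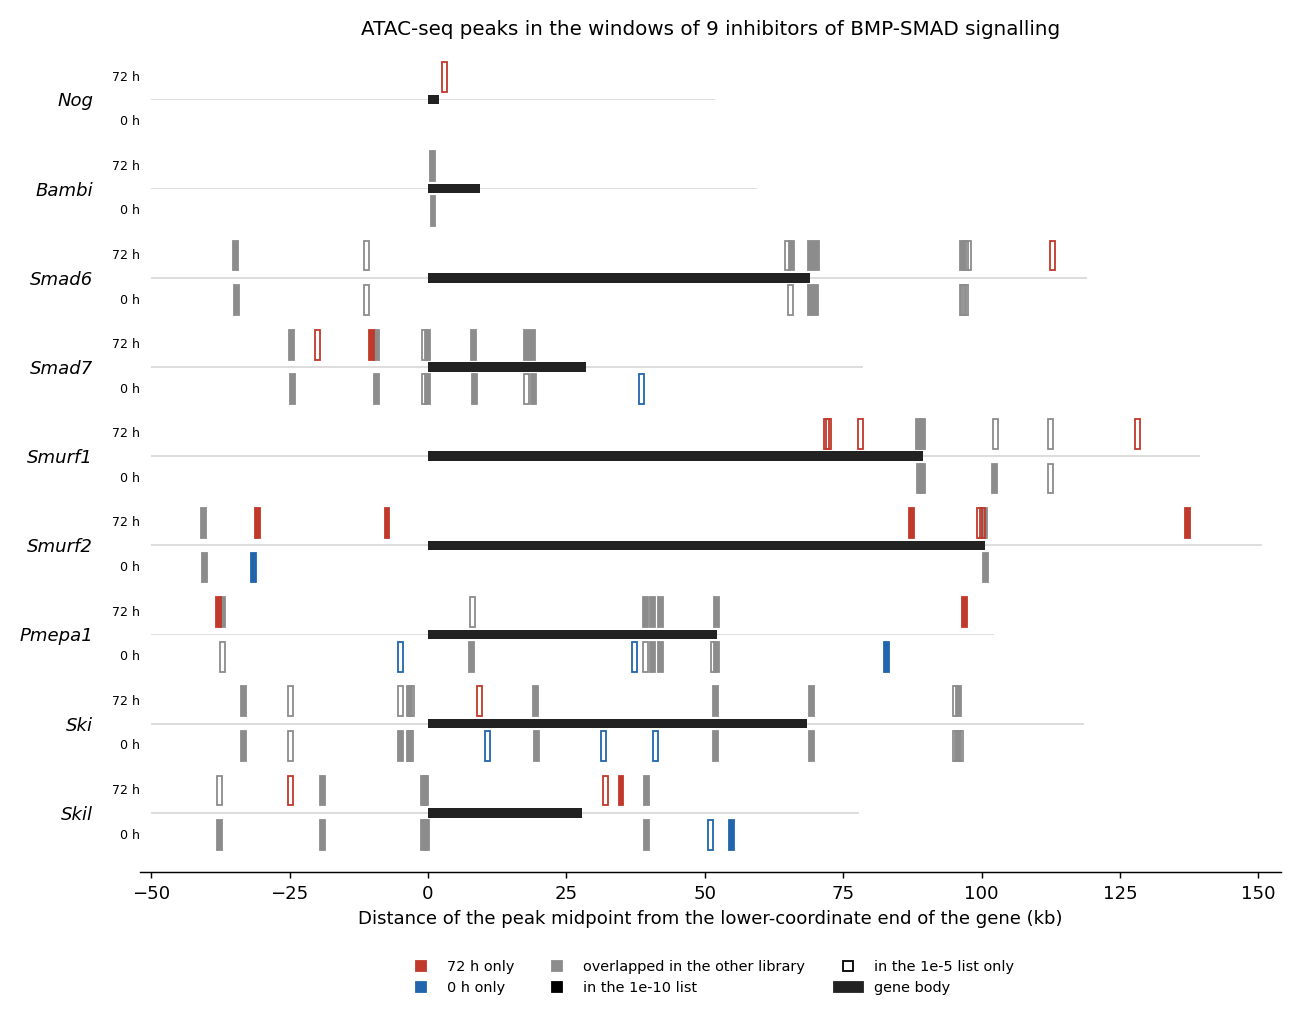
Peaks in the windows of the 9 genes, 72 h above and 0 h below each gene body; the horizontal axis is the distance of the peak midpoint from the lower-coordinate end of the gene in kb, and marks are drawn wider than the peaks. Filled marks are strict and open marks lenient; the 20 red marks (72 h only) and 10 blue marks (0 h only) lie among grey marks that have a partner in the other library, and Smurf2 holds 4 of the 8 strict red marks.

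Most sites of the inhibitor genes were called in both libraries, and the share found in 1 library was close to that over all genes. Of the 72 h peaks at the 9 genes, 20 of 64 (31.2%, 20.2 to 44.1) were found at 72 h only, beside 29.0% of the 37726 peaks at 72 h in reach of any protein-coding gene. Of the 0 h peaks, 10 of 56 (17.9%, 8.91 to 30.4) were found at 0 h only, beside 19.7% of 32997 peaks. Among strict peaks, 8 of 39 at 72 h (20.5%, 9.30 to 36.5) had no 0 h partner, beside 16.9% in reach of any gene. At 0 h, 3 of 33 strict peaks (9.09%, 1.92 to 24.3) had no 72 h partner, beside 5.94%. Joined into 63 sites, 36 were shared (57.1%, 44.0 to 69.5, beside 57.3% of all sites in reach), 17 were at 72 h only (16.6 to 39.7%, beside 26.9%) and 10 at 0 h only (15.9%, 7.88 to 27.3, beside 15.8%). Each interval covers the background share, so these counts do not set the inhibitor genes apart. The intervals are wide and treat peaks as independent, although some overlap each other or share a window. They therefore do not show that the shares are equal.

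Counted by gene, 4 of the 9 (Smad7, Smurf2, Pmepa1 and Skil) had a strict 72 h-only peak, beside 33.3% of the 18256 genes. A strict 0 h-only peak was at 3 of the 9 (Smurf2, Pmepa1 and Skil), beside 13.0%. When lenient peaks were counted too, 8 of 9 had a 72 h-only peak (all but Bambi), beside 64.4% of genes, and 5 of 9 a 0 h-only peak, beside 52.2%. The genes differ from the rest in size: their median length was 52.3 kb against 19.8 kb over all genes, and their median number of sites 7 against 5. Many of the peaks also lie closer to another gene. The inhibitor was the nearest protein-coding gene of 48 of the 64 peaks at 72 h and of 40 of the 56 at 0 h. With these alone, 4 genes kept a strict 72 h-only peak, while 1, Pmepa1, had a strict 0 h-only one.

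**Figure D2:**
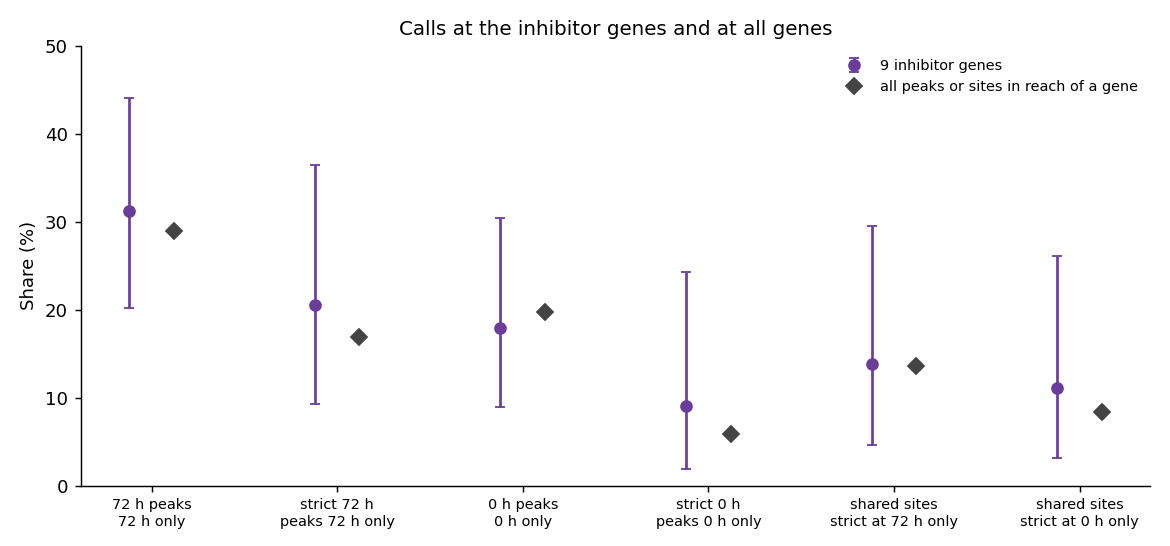
Share in percent of peaks or sites with each call at the 9 inhibitor genes (circles, with exact 95% intervals) and over all peaks or sites in reach of a protein-coding gene (diamonds, same calls). All 6 intervals include the diamond beside them; the widest gap is that of strict 72 h peaks, 20.5% at the inhibitor genes against 16.9% overall.

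**Figure D3:**
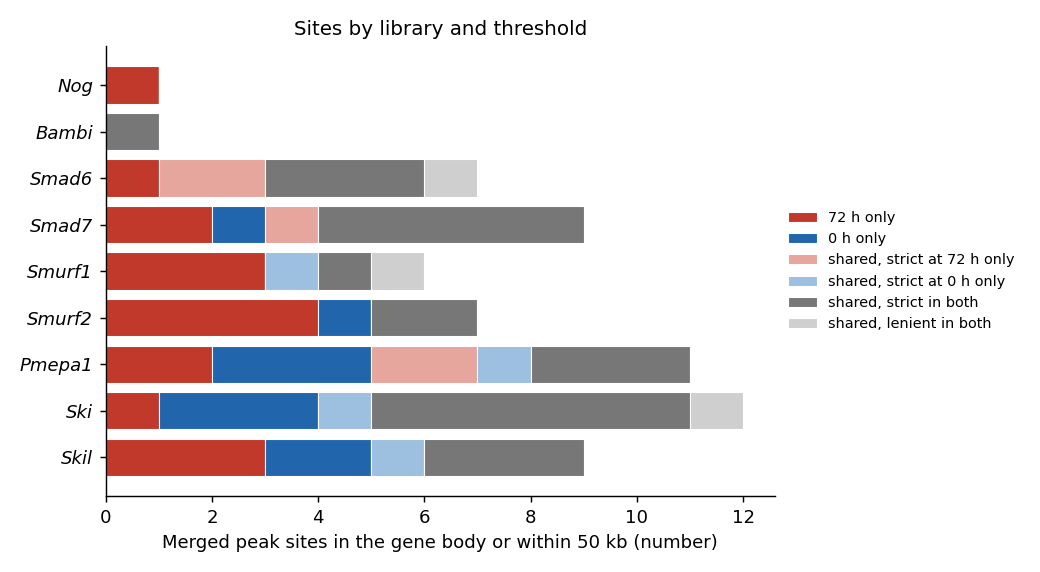
Number of merged sites per gene, split by the library in which they were found and, for shared sites, by the list they reached. The total ranges from 1 at Nog and Bambi to 12 at Ski. Sites of 72 h only are most numerous at Smurf2 (4 of 7), are as many as the shared ones at Smurf1 (3 each) and include the 1 site of Nog. Sites of 0 h only are at most 3, at Pmepa1 and Ski.

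The secreted inhibitor Nog had a single peak, found at 72 h only. It lay at chr11:89303307-89303907, 1.05 kb outside the gene, and was lenient. The 0 h library had no peak within 50 kb of Nog. Its nearest one, strict and without a 72 h partner, was 114 kb away, and the next peak of the 72 h library was 176 kb away. The gene itself spans 1.92 kb and no other protein-coding gene lies within its window. Bambi, the pseudoreceptor gene, also had 1 site, inside the gene and 0.913 kb from its end, at chr18:3507623-3508226. This site was strict at 72 h and at 0 h, and the midpoints differed by 3 bp. The next peak of either library lay 124 kb from Bambi. These 2 genes are the sparsest of the 9, and they differ in that the Bambi site was called in both libraries and the Nog site in the 72 h library.

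Both inhibitory Smad genes had more strict peaks at 72 h than at 0 h, as did Smurf2 and Pmepa1. Smurf1 (2 against 3), Ski (6 against 7) and Skil (5 against 6) had fewer, and Bambi and Nog had equal counts. Over the whole series the 72 h library also had more strict peaks in reach of a gene. They were 23160 of 37726 (61.4%) at 72 h and 18725 of 32997 (56.7%) at 0 h. The share of all genes with more strict peaks at 72 h was not counted. At the 9 genes together, 39 of 64 (60.9%, 47.9 to 72.9) and 33 of 56 (58.9%, 45.0 to 71.9) were strict. Smad6 had 10 peaks at 72 h, 5 of them strict, and 8 at 0 h, 3 of them strict. They formed 7 sites, of which 6 were shared. Of these 6, 3 were strict in both libraries, 1 was lenient in both and 2 were strict at 72 h only; none was strict at 0 h only. The first of those 2, chr9:64017788-64018980, lay inside the gene, 3.70 kb from its end, with 2 peaks at 72 h and 1 at 0 h. The other, chr9:64049286-64051001, was a cluster of 3 peaks at 72 h and 3 at 0 h centred 28.1 kb outside, on the side of the promoter. The promoter site whose sequence is given above, chr9:64021860-64022472, was strict in both. The 1 Smad6 site found at 72 h only, chr9:64065558-64066158, was lenient and 43.8 kb outside the gene. There the numbering of the 0 h list skips a number, so a 0 h peak may not have been analysed here. No other protein-coding gene lies in the Smad6 window.

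Smad7 had 9 peaks at 72 h, 7 of them strict, and 8 at 0 h, 5 of them strict. Its 9 sites comprised 6 shared, 2 at 72 h only and 1 at 0 h only. Of the shared sites 5 were strict in both libraries, among them the one at the gene end, chr18:75366462-75367670, and 2 inside the gene. The sixth, chr18:75384817-75385445 inside the gene, was strict at 72 h only. The strict 72 h-only peak at chr18:75356910-75357510 lay 291 bp from the nearest 0 h peak, next to a shared site that was strict in both. The other 72 h-only site, centred 20.0 kb outside, and the 0 h-only site, centred 9.94 kb outside on the opposite side, were lenient.

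The ubiquitin ligase genes had several peaks found at 72 h only, 6 at Smurf2 and 4 at Smurf1. As joined sites found at 72 h only there were 4 at Smurf2 and 3 at Smurf1, beside 3 at Skil, and the ligase genes have the longest windows of the 9, 201 kb at Smurf2 and 189 kb at Smurf1. Smurf2 had 8 peaks at 72 h, of which 6 were strict, and 3 at 0 h, all strict. Of its 8 peaks at 72 h, 6 had no 0 h partner, and 4 of these were strict. One strict 72 h-only peak lay inside the gene at chr11:106907142-106907742, 13.3 kb downstream of the start, with no 0 h peak within 5000 bp. The other 3 lay outside it and nearer to other genes. That at chr11:106788948-106789548 was 0.063 kb from an end of Cep95, and 48 bp separated it from the strict 0 h-only peak of the window, chr11:106788299-106788899, which was 0.041 kb from an end of Ddx5. The calls of the 2 libraries thus lay side by side between those neighbours. Those at chr11:106812366-106812966, 7.39 kb outside Smurf2, and chr11:106957046-106957646, 36.6 kb outside, were nearest to Cep95 and Kpna2. The remaining 2 peaks without a partner were lenient and lay 0.504 and 0.978 kb downstream of the start, joined to the shared promoter site by overlap of 72 h peaks. At that promoter the 72 h and 0 h midpoints stood 177 bp apart.

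Smurf1 had 8 peaks at 72 h, 2 of them strict, and 4 at 0 h, 3 of them strict. The 4 peaks of the 72 h library without a 0 h partner were all lenient and formed 3 sites. Of these, 2 lay inside the gene, at chr5:144948173-144949083 and chr5:144954384-144954984, between 11.1 and 17.4 kb downstream of the start. The third lay 4.92 kb from an end of the neighbouring Kpna7. The 0 h library had no site of its own at Smurf1. Of the 3 shared sites, the one over the start, chr5:144964858-144966210, was strict in both libraries, and that at chr5:144978581-144979268 was strict at 0 h only and nearest to Kpna7. Smurf2 thus had 4 strict 72 h-only peaks in its window and Smurf1 had 0; with peaks nearest to the gene itself the counts were 1 and 0.

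At Pmepa1 the sites found in 1 library were divided between the libraries. It had 8 peaks at 72 h, 7 of them strict, and 10 at 0 h, 5 of them strict. Its 11 sites comprised 6 shared, 2 at 72 h only and 3 at 0 h only. Both 72 h-only sites were strict and far from the gene, at chr2:173186266-173186866, 37.9 kb outside and nearest to Zbp1, and chr2:173321122-173321722, 44.7 kb outside on the other side. The first lay 192 bp from the nearest 0 h peak. At the second, the numbering of the 0 h list skips a number, so a 0 h peak there may not have been analysed here. Among the 0 h-only sites that at chr2:173307033-173307633, 30.6 kb outside, was strict, and the other 2 were lenient, with 1 inside the gene. Between 10.2 and 12.9 kb from the nearer gene end, inside the gene, stood a row of 3 shared sites. That at chr2:173263513-173264136 was strict at 72 h only, and the 2 next to it were strict in both. A further shared site outside, chr2:173187059-173187711, was strict at 72 h only, and one inside, chr2:173232017-173232733, was strict at 0 h only. The site at the gene end, chr2:173275693-173276908, was strict in both.

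The corepressor genes Ski and Skil also had sites of either library alone. Ski had 11 peaks at 72 h, 6 of them strict, and 15 at 0 h, 7 of them strict. Its 12 sites were 8 shared, 1 at 72 h only and 3 at 0 h only, and none of the 4 found in 1 library was strict. All 4 lay inside the gene. The 72 h-only site at chr4:155163074-155163674 and the 0 h-only site at chr4:155164451-155165051 were 776 bp apart. Of the 8 shared sites 6 were strict in both, 1 was lenient in both, and chr4:155148810-155149437, nearest to Morn1, was strict at 0 h only. Several of the shared Ski sites lay close to neighbours, such as a cluster of 2 peaks at 72 h and 4 at 0 h, 2.90 kb from an end of Faap20.

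Skil had 8 peaks at 72 h, 5 of them strict, and 7 at 0 h, 6 of them strict. Of its 9 sites, 4 were shared, 3 were at 72 h only and 2 at 0 h only, and all 9 lay outside the gene. On the far side from the shared site at chr3:31093897-31095016, which was strict in both and centred 0.602 kb from one gene end, stood the strict 72 h-only peak chr3:31129633-31130233, 7.01 kb outside. A lenient 72 h-only peak lay 4.12 kb outside on the same side. The strict 0 h-only peak, chr3:31149565-31150165, was 26.9 kb from Skil and 0.055 kb from an end of Cldn11, which encodes a claudin. The shared site at chr3:31057128-31057741 was strict at 0 h only and nearest to Prkci. Thus of the 5 sites of Skil found in 1 library, the 2 of the 0 h library were nearest to Cldn11, and 2 of the 3 at 72 h were nearest to Skil itself.

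Shared sites give a further view, since a site can be called in both libraries and reach the strict list in 1. Of the 36 shared sites at the 9 genes, 24 (66.7%, 49.0 to 81.4) were strict in both libraries and 3 (8.33%, 1.75 to 22.5) lenient in both, beside 64.4% and 13.6% of the 22250 shared sites in reach of any gene. Strict at 72 h only were 5 (13.9%, 4.67 to 29.5), beside 13.6%, and strict at 0 h only were 4 (11.1%, 3.11 to 26.1), beside 8.43%. The 5 were at Smad6 (2), Pmepa1 (2) and Smad7 (1), and the 4 at Smurf1, Pmepa1, Ski and Skil (1 each). Of those 4, the ones at Smurf1, Ski and Skil were nearest to another gene, while 4 of the 5 strict at 72 h only were nearest to the inhibitor gene. Reaching a list depends on read depth as well as on accessibility, so a site strict in 1 library is not a measured change.

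None of the 17 sites at 72 h only and none of the 10 at 0 h only was centred within 1 kb of an end of its inhibitor gene, against 8 of the 36 shared sites. The nearest of these sites was the Nog site at 1.05 kb. Joining matters here, because a 72 h-only peak that overlaps a peak of a shared site is counted with that site. The lenient 72 h-only Smurf2 peak centred 0.536 kb from the gene end was counted as shared in this way. The median distance to the nearer gene end was 17.3 kb for 72 h-only sites, 25.0 kb for 0 h-only sites and 10.9 kb for shared ones, with ranges of 1.05 to 44.7, 4.99 to 31.8 and 0.081 to 40.5 kb that overlap. Inside the inhibitor gene were 4 of 17 sites at 72 h only (23.5%, 6.81 to 49.9), 4 of 10 at 0 h only (40.0%, 12.2 to 73.8) and 14 of 36 shared (38.9%, 23.1 to 56.5), intervals that overlap. Inside any protein-coding gene were 7 of the 17 (41.2%, 18.4 to 67.1), 5 of the 10 (50.0%, 18.7 to 81.3) and 18 of the 36 (50.0%, 32.9 to 67.1), beside 59.6%, 58.2% and 61.3% of all such sites in reach of a gene, which lie within these intervals. Distances to the ends of any protein-coding gene add the neighbours: 1 of 17 sites at 72 h only (5.88%, 0.149 to 28.7), 3 of 10 at 0 h only (30.0%, 6.67 to 65.2) and 9 of 36 shared sites (25.0%, 12.1 to 42.2) were within 1 kb. Over all sites in reach of a gene these shares were 7.72%, 18.8% and 45.6%. For shared sites the interval at the inhibitor genes lies below 45.6%. The inhibitor genes are also longer, with a median length of 52.3 kb against 19.8 kb over all genes. The shares were not adjusted for gene length or for the number of neighbouring genes, and the difference was not tested.

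**Figure D4:**
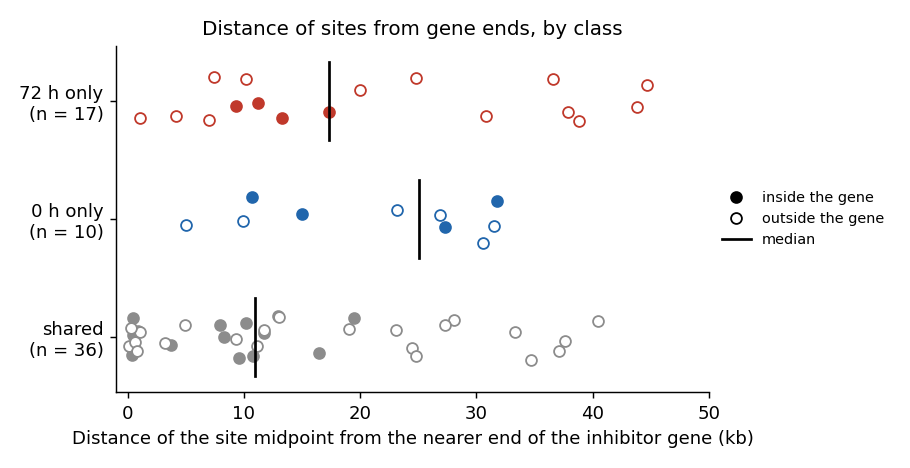
Distance in kb of the midpoint of each of the 63 sites from the nearer end of its inhibitor gene, by class; filled circles lie inside the gene, open ones outside, and the vertical bar is the median. No site of 72 h only or 0 h only lies within 1 kb, where 8 shared sites stand. The shared site at Smurf2 takes in a lenient 72 h-only peak centred 0.536 kb from the gene end.

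Shared peaks had nearly the same position in both libraries. Over the 44 peaks at 72 h with a 0 h partner, the midpoints differed by a median of 38.0 bp, with a range of 3 to 567 bp, and 34 of them (77.3%) by at most 100 bp. Over all 26783 such pairs in reach of a gene the median was 30.0 bp and 82.4% differed by at most 100 bp. The largest shift, 567 bp, belonged to an extra 72 h peak beside the shared Smad6 site inside the gene. No peak lay near the outer limit of the windows: the farthest included was 44.7 kb from its gene (Pmepa1, 72 h), and the nearest left out were 56.2 kb from Skil at 72 h and 56.1 kb at 0 h.

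Other genes of the pathway were listed by role, and 49 of the 51 listed had a peak in reach. Of these 49, 18 had a strict 72 h-only peak and 5 a strict 0 h-only one, with 3 in both counts and 29 in neither. Of all genes with a peak in reach, 33.3% had a strict 72 h-only peak and 13.0% a strict 0 h-only one. The lists below are short, and none was tested against these shares. The counts are of peaks in each window, not of joined sites, and were not limited to peaks nearest to the named gene. Smad2 and Itch, for example, had 2 strict 72 h-only peaks each but 1 joined 72 h-only site each. Among the 6 signalling Smads, 4 had strict 72 h-only peaks and 0 had strict 0 h-only ones: Smad1 and Smad5, which transmit BMP signals, with 1 each, and Smad2 and Smad3, of the TGF-beta branch, with 2 each. Among 10 receptors and co-receptors, 3 had strict 72 h-only peaks, with 1 each at Bmpr1a (a BMP type I receptor), Acvr2a (an activin type II receptor) and Tgfbr2 (the TGF-beta type II receptor), and Bmpr1a also had 1 at 0 h only. Of 14 ligands and extracellular antagonists with a peak, 3 had strict 72 h-only peaks: Crim1, which encodes a membrane protein that binds BMPs, with 5, the ligand gene Bmp2 with 2, and Bmp7 with 1, beside 1 at 0 h only. Of 9 target transcription factor genes, Id3 and Gata2 had 1 strict 72 h-only peak each, and Msx2 had 2 at 0 h only.

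Of 10 further genes listed as intracellular inhibitors, 6 had strict 72 h-only peaks and 2 strict 0 h-only ones. Nedd4l, a ubiquitin ligase gene related to the Smurf genes, had 3 at 72 h only and 2 at 0 h only. Itch, another ligase gene, and Ppm1a, which encodes a phosphatase acting on SMADs, had 2 at 72 h only each, and the antiproliferative genes Tob1 and Tob2 had 1 each. Zfyve9 had 3, but it encodes SARA, which presents SMAD2 and SMAD3 to the receptor and is not an inhibitor by role. Tgif2, a corepressor gene, had 1 at 0 h only. Read against 33.3% and 13.0% of all genes, 18 and 5 of 49 do not set these lists apart.

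By counts of sites (shared, 72 h only, 0 h only), the pathway gene most like Skil among the 49 was Bmpr1a, with the same 4, 3 and 2. Most like Pmepa1 was Tgif1, with the same 6, 2 and 3. Smad6 and Smad7 each came closest to Tgfbr2, with a summed difference of 1 site. For Smurf1 it was Bmp2 (difference of 1), for Smurf2 Bmpr2 (2) and for Ski Id3 (3), each of them tied with other genes. The measure covers 2 libraries and uses no positions.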

How the data were processed

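ATAC-seq peaks of 1 library at 72 h and 1 at 0 h were used. The build was mm10, and the peak names point to MACS2; its version 2.2.7.1 comes from the submitters' processing notes, which also name Bowtie2 2.4.1, cutadapt 1.9.1, deepTools 3.5.4, bedtools 2.26.0, Picard 2.18.27 and SAMtools 1.3.1. The sources used here give no settings, such as a Tn5 shift. The deposited lists hold positions and names of peaks called per library, nearly all 601 bp wide, with no score. A list of regions named enriched in each library was also read. The 8 strict 72 h-only and 3 strict 0 h-only peaks at the 9 genes were all in it, and no other peak there was. The list thus matches the same rule applied to the same peak calls, so it is not an independent check of them.

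Midpoints were placed with the RefSeq gene table of GRCm38.p6, which gives no strand; strand came from the promoter table for 4 genes, so for the others "gene end" means either boundary, and exons and introns were not resolved. Overlaps and merging were checked on simulated intervals with known answers. The genes, the pathway lists, the motifs and the rule for naming pathway genes (those with a strict peak in 1 library) were chosen with earlier results of these data known. The alternatives were another window, overlap, list or assignment, and merged peaks. Tools were SciPy 1.17.1, pandas 2.3.3, matplotlib 3.10.9 and numpy 2.4.6 in Python 3.11.15.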

Additional observations from a re-analysis of the deposited data

How the results depend on the processing

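The share of 72 h peaks found at 72 h only ran from 21.9% to 34.4% under 7 alternatives. The share of 0 h peaks found at 0 h only ran from 14.3% to 21.2%. All lay within the 95% intervals of the reported 31.2% and 17.9%, but those intervals describe counting error and not tolerance to processing. Both lowest shares came from counting a peak as shared when the other library had one within 1 kb. The shares over all genes are given for the main setting only. The counts of genes moved more. With a window of 10 kb, 2 genes had a strict 72 h-only peak and 0 a strict 0 h-only one, and with 1 kb the counts were 1 and 0, in place of 4 and 3; fewer peaks are counted in these windows. With the 1e-10 lists compared with each other, 5 genes had a strict 0 h-only peak, and with nearest-gene assignment 1. The other 6 alternative counts of genes differed from the reported ones by at most 1 gene. Of the sites found in 1 library, 2 of 17 at 72 h only and 2 of 10 at 0 h only lie where the numbering of the other library's list skips a number, so a peak there may not have been analysed here. The 2 at 0 h only are both at Ski and share the same 1 skipped number. No paired analysis was possible because each time point is 1 library. Unknown depth limits every call.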
